A study of Homo sapiens with 11 samples.

Results

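AA132 at 15 µM was compared with vehicle in HEK293T, an established line of human embryonic kidney origin, after 6 h of treatment. The comparison takes the 3 numbered libraries labelled AA132 15 µM and the 3 labelled vehicle, 6 of the 33 libraries in the series. Both groups are wild-type HEK293T cells on 10 cm plates, and vehicle was 0.1% DMSO. The other 9 conditions are AA132 at 0.1, 0.3, 1, 3, 6, 10 or 30 µM, AA147 at 10 µM, and thapsigargin (Tg) at 500 nM. AA132 and AA147 are small molecules studied as regulators of protein homeostasis in the endoplasmic reticulum (ER), and Tg blocks the calcium pump of the ER and so causes general ER stress. Each condition is 1 deposited sample with 3 numbered columns, and the labels do not say whether those columns are separate cultures. The p-values therefore measure the spread between these libraries, which may be technical.

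The unfolded protein response senses misfolded protein in the ER lumen through ATF6, IRE1 and PERK. Cleaved ATF6 induces ER chaperones, IRE1 splices XBP1 mRNA into a factor for secretory and degradation genes, and PERK acts through the translation factor eIF2alpha and ATF4, the hub of the integrated stress response. NRF2 drives antioxidant genes when its inhibitor KEAP1 is modified, and HSF1 drives cytosolic heat shock genes when cytosolic proteins misfold.

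Library totals of the 6 libraries ran from 36.6 to 37.5 M counts. Levels are given as CPM, counts scaled to library size with TMM factors, and means are given ± SD over 3 libraries. HEK293T genes were present at 2693 to 3251 CPM summed over 8 genes. Of 10 markers of other cell types, 7 lay under 1 CPM in all 6 libraries, and PTPRC, CD3E and HBB were at 0. The remaining markers were expressed, and the 10 together summed to 166 to 194 CPM per library. The 9 mitochondrially encoded mRNAs summed to 31199 to 33224 CPM in 5 of the libraries and 39759 CPM in 15 µM library 3. The part of that difference in the results was not tested. Vehicle library 1 stood apart from every other library: its score on the third principal component (5.53% of variance) was -52.9, while the other 32 libraries lay between -10.5 and 11.9. Its counts differed from those of vehicle libraries 2 and 3 with a chi-square per degree of freedom of 59.4 and 46.2, against 7.47 between libraries 2 and 3 and 5.73 to 11.5 among the 15 µM libraries. Among libraries outside the comparison, AA132 10 µM library 1 scored 42.0 and AA147 library 1 scored 30.1 on the fourth component. HMOX1 stood at 39.8 CPM in AA132 1 µM library 1 against 11.5 and 12.1 CPM in libraries 2 and 3, and at 14.2 CPM in 3 µM library 3 against 49.3 and 43.9 CPM in libraries 1 and 2. These 4 treated libraries enter the comparison through the normalization and spread that all 11 conditions share in the fit.

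Genes higher under AA132 at 15 µM included 14 of 14 ER chaperones and folding enzymes, 8 of 10 amino acid transporters, 6 of 14 antioxidant genes and the inducible HSP70 genes, and 3 genes of the aryl hydrocarbon receptor were lower. The lists and their members were chosen with earlier results of these data known, so such counts are descriptive and add no independent support. Of 17793 genes tested with edgeR's quasi-likelihood test, 491 (2.76%) passed an adjusted p of 0.05 after Benjamini-Hochberg correction, and are termed called. The 350 genes called higher are 1.97% of those tested, and the 141 called lower are 0.792%. Most changes were small: 59.1% of the called genes had an absolute log2 fold change under 0.5, the median was 0.45 among genes called higher and -0.46 among those called lower, and 43 genes (31 higher, 12 lower) moved by at least 1 on the log2 scale. The levels of the compared libraries did not overlap for 484 of the 491. These genes were picked by a test on the same libraries, so this count adds no support. The share of all genes tested without overlap was not counted. Without vehicle library 1, 636 genes were called (399 higher, 237 lower), and 307 of the 491 were among them. The count moved most without vehicle library 2 (920 genes) and without 15 µM library 3 (267 genes), and it was 312 and 301 without 15 µM libraries 1 and 2. A total of 174 genes held in each of the 33 fits that left out 1 library, and 46 held when the fit used the 6 compared libraries alone.

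**Figure D1:**
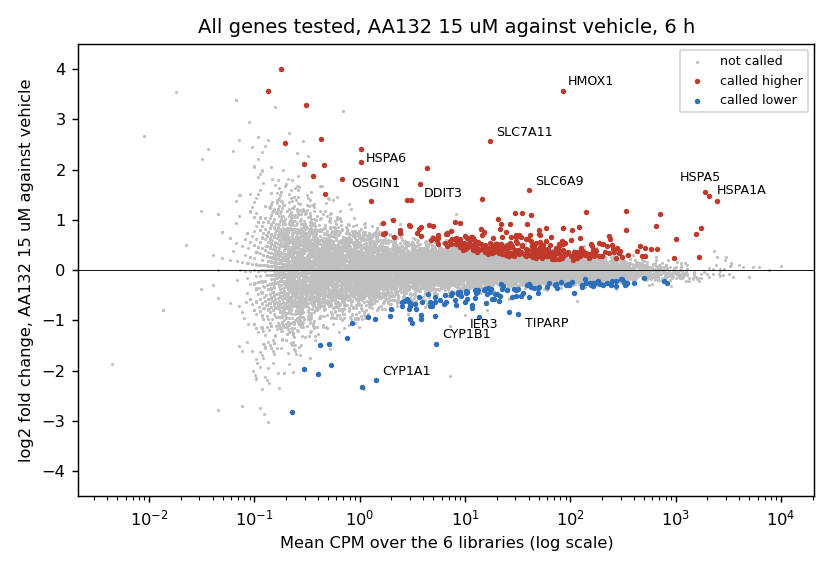
Log2 fold change of each gene tested, AA132 15 µM against vehicle, over its mean CPM in the 6 libraries (log axis), with genes called higher in red, genes called lower in blue and others in grey; 9 genes, none of them called, lie beyond the vertical axis. HMOX1 has the largest called rise among genes with at least 1 CPM under AA132, and the called falls at moderate levels include CYP1B1, TIPARP and IER3.

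The comparison was checked first on HSPA5, HMOX1 and DNAJB1, which stand for the ER, oxidative and cytosolic heat shock responses. HSPA5 encodes BiP, the main chaperone of the ER lumen. Its level was 1025, 973 and 881 CPM in the vehicle libraries and 2706, 2791 and 2923 CPM in the 15 µM libraries. The groups lay far apart, a 2.92-fold rise in mean level (log2 fold change 1.55, SE 0.16, adjusted p 1.46e-07). HMOX1 encodes heme oxygenase 1, which breaks down heme. It stood at 16.4, 11.1 and 11.9 CPM under vehicle and at 154, 159 and 153 CPM under AA132. Every treated library was far above every vehicle library, an 11.9-fold rise in mean level (log2 fold change 3.57, SE 0.34, adjusted p 6.43e-08). DNAJB1, the HSP40 partner of cytosolic HSP70, moved from 145, 138 and 144 CPM to 172, 178 and 177 CPM. Its groups did not overlap, but the rise was 1.23-fold (log2 fold change 0.30, SE 0.06, adjusted p 0.00561), and in the fit of the 6 libraries alone the adjusted p was 0.258. All 3 markers were higher under AA132, DNAJB1 by the least. In RNA from a whole culture, a change in level per cell and a change in the share of cells that express a gene cannot be told apart.

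**Figure D2:**
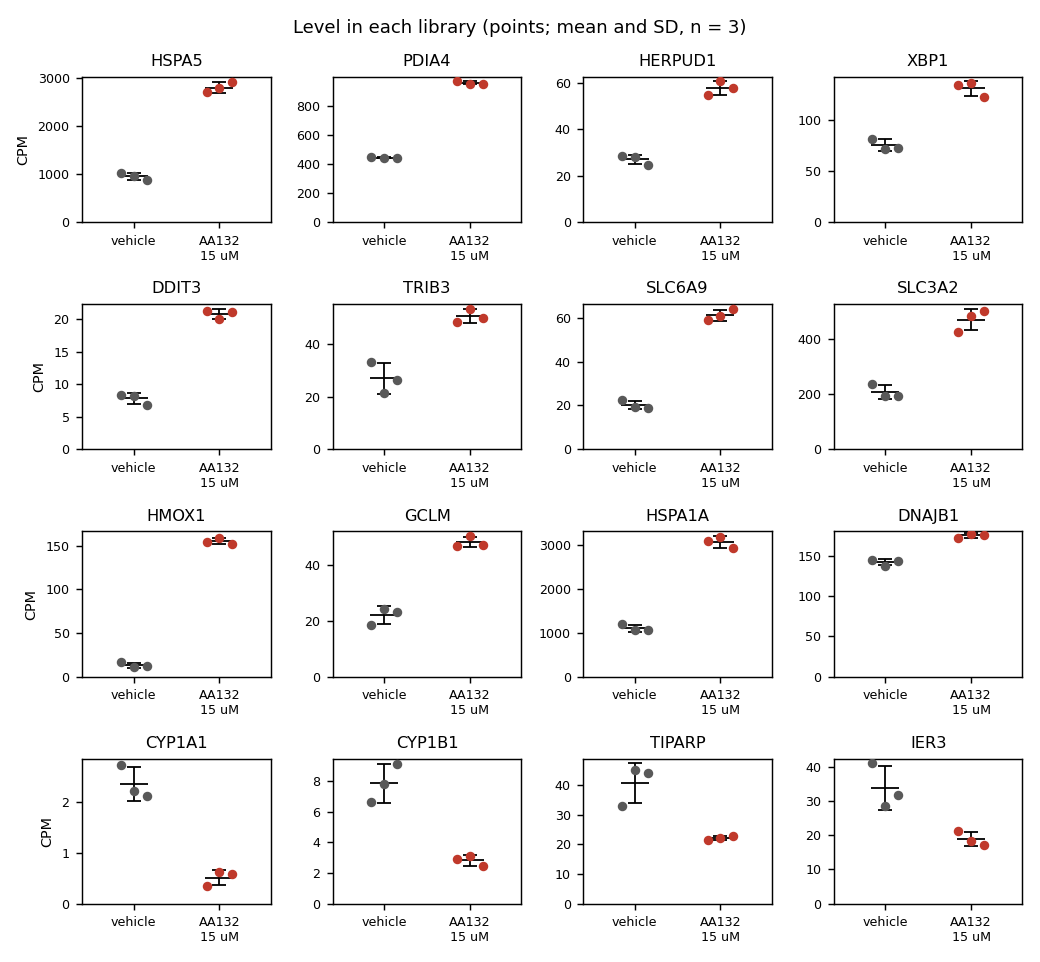
Level in CPM (linear axis from 0) of 16 genes in each vehicle and AA132 15 µM library, with the mean and SD of 3 libraries. The groups do not overlap for any gene shown, and means went from 13.1 to 155 CPM for HMOX1 and from 142 to 175 CPM for DNAJB1. All 16 genes were picked from those called in these same libraries, so the lack of overlap adds no support.

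All 14 ER chaperones and folding enzymes usually assigned to ATF6 rose, where 1.97% of all genes did. The list was chosen with earlier results of these data known, so the contrast of these shares is not an independent test. Their median log2 fold change was 0.69, beside 0.0036 over all genes tested. Summed over the 14 genes, levels were 6752 to 7320 CPM under vehicle and 12450 to 12815 CPM under AA132. PDIA4, a disulfide isomerase, moved from 450, 442 and 445 CPM to 973, 955 and 955 CPM. Libraries within each group barely differed, and the rise was 2.16-fold (log2 fold change 1.11, SE 0.11, adjusted p 7.6e-08). MANF, a secreted factor retained in the ER with BiP, stood at 101, 78.8 and 81.5 CPM under vehicle and at 194, 201 and 187 CPM under AA132 (log2 fold change 1.16, SE 0.12). HSP90B1, the HSP90 of the ER also called GRP94, moved from 1280, 1266 and 1164 CPM to 2223, 2185 and 2238 CPM (log2 fold change 0.84, SE 0.09). Both genes separated the groups fully.

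Smaller rises completed the set. The BiP partners followed: the nucleotide exchange factor HYOU1 by 0.88, and the J-domain proteins DNAJC3 and DNAJB11 by 0.91 and 0.67. The lectin chaperones that hold glycoproteins were higher by 0.71 (CALR) and 0.61 (CANX). SDF2L1 and CRELD2 rose by 0.66 and 0.58, and vehicle library 1 was the highest vehicle library for each (67.0 against 41.2 and 43.5 CPM for SDF2L1, and 88.0 against 56.2 and 57.6 CPM for CRELD2). The isomerases PDIA6, PDIA3 and P4HB were higher by 0.42, 0.35 and 0.25. Of the 14, only P4HB lost its call with 1 library left out: without 15 µM library 1 or 2 or vehicle library 2 or 3, its adjusted p was 0.0799 to 0.0974. In the fit of the 6 libraries alone 8 of the 14 were called.

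Promoters of some such genes are known for the ER stress element, to which ATF6 binds together with NF-Y. It was searched as CCAAT, a gap of 9 bases and CCACG, on both strands, in the 250 bases before each start in RefSeq (GRCh38.p14). Of the 14 ER chaperones and folding enzymes, 13 were matched to a promoter, and 5 of these held the element (38.5%). PDIA4, MANF, HYOU1, DNAJC3, DNAJB11, SDF2L1, PDIA6 and P4HB held no match. Only exact matches were searched, so variants of the element are missed in these and in the other promoters. The element lies in 22 of 27305 promoters (0.0806%) and in 18 of the 12337 tested genes matched to a promoter (0.146%). It lies in 10 of 265 genes called higher (3.77%) and in 0 of 95 called lower. At a share of 0.146%, a set of 95 would be likely to hold no match, so that 0 gives no contrast. The 10 genes called higher with a match follow in the order of their adjusted p, because they carry it and rose together. Each line is read 5′ to 3′ on the strand of the gene, in lower case with the whole element, gap included, in capitals.
HSPA5, chr9:125241386-125241414, minus strand: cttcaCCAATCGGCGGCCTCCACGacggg
HSP90B1, chr12:103930316-103930344, plus strand: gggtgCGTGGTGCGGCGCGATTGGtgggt
HSP90B1, chr12:103930211-103930239, plus strand: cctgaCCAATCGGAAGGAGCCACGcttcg
XBP1, chr22:28800598-28800626, minus strand: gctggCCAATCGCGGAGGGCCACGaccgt
CALR, chr19:12938379-12938407, plus strand: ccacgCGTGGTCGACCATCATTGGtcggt
CANX, chr5:179698773-179698801, plus strand: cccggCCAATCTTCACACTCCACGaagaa
ERO1B, chr1:236282178-236282206, minus strand: gcccgCGTGGTCCCGCCTCATTGGccgcc
CRELD2, chr22:49918549-49918577, plus strand: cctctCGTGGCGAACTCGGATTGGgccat
TRIM5, chr11:5685110-5685138, minus strand: ccctaCGTGGAGAAATGCCATTGGcccat
FICD, chr12:108515118-108515146, plus strand: aacaaCCAATGGGAGTGGCCCACGgcgcg
ALG12, chr22:49918549-49918577, minus strand: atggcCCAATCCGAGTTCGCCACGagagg

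CRELD2 and ALG12, a mannosyltransferase of N-glycan assembly, face away from each other and share 1 copy of the element. HSP90B1 holds 2 copies, 1 in each orientation. Beyond the chaperones, the log2 fold change was 0.69 for ERO1B (an ER oxidase that recharges disulfide isomerases), 0.69 for FICD (an enzyme that modifies BiP), 0.50 for TRIM5 and 0.31 for ALG12. The call of ALG12 ended without 15 µM library 2 (adjusted p 0.0513) or 3 (0.0634) or vehicle library 2 (0.0675), and that of FICD with AA132 0.1 µM as control (0.143). In the fit of the 6 libraries alone, CANX, ERO1B, CRELD2, TRIM5, FICD and ALG12 were not called (adjusted p 0.112 to 0.414). The 8 tested genes with the element that were not called include SERP1 and EIF2A, named after their values were seen, which share 1 copy and had log2 fold changes of 0.12 (adjusted p 0.519) and -0.00086 (adjusted p 0.997). The shorter ATF6 core TGACGTG was found in 1.13% of genes called higher and 2.10% of genes tested.

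The full 250 bases before the start of HSPA5 show where its exact match lies, with the first base of the match 66 bases before the start (chr9:125241344-125241593, minus strand), the match in capitals.
HSPA5: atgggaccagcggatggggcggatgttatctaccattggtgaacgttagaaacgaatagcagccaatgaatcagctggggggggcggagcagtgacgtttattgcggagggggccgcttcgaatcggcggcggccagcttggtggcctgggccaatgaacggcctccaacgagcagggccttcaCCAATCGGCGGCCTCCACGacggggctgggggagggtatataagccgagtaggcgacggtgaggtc

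Some genes of ER-associated degradation and of the XBP1s arm were also called. Of 14 degradation genes, 6 rose and none fell, with a median log2 fold change of 0.22. HERPUD1, a membrane organizer of the degradation complex, stood at 28.3, 28.1 and 24.7 CPM under vehicle and at 54.6, 60.5 and 57.6 CPM under AA132. The groups were separate, a 2.13-fold rise (log2 fold change 1.09, SE 0.11, adjusted p 1.46e-07). The other called members were DERL3 (1.02), a derlin of the retrotranslocation machinery, SEL1L (0.51) and SYVN1 (0.33), which form the HRD1 ubiquitin ligase, and the selenoproteins SELK (0.48) and VIMP (0.38).

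Of 16 XBP1s-type genes, 5 rose and none fell (median log2 fold change 0.25). XBP1 itself moved from 82.1, 72.0 and 73.2 CPM to 135, 137 and 123 CPM. The lowest treated library was well above the highest vehicle library (log2 fold change 0.80, SE 0.10, adjusted p 3.1e-06). These counts do not separate spliced from unspliced XBP1 mRNA. DNAJB9, a BiP co-chaperone that restrains IRE1, moved from 9.34, 9.34 and 9.39 CPM to 14.5, 14.3 and 14.9 CPM (log2 fold change 0.64, SE 0.09, adjusted p 1.94e-05). PLPP5, the COPII coat gene SEC24D and the translocon subunit SEC61A1 were higher by 0.36, 0.35 and 0.29. EDEM1, a mannosidase-like degradation factor, was not called (log2 fold change 0.07, adjusted p 0.699). In the fit of the 6 libraries alone, 2 of the 6 degradation calls and 1 of the 5 XBP1s-type calls held. Calls that ended when 1 of the 6 libraries was left out were those of SEC61A1 (adjusted p 0.141 without 15 µM library 3), PLPP5 (0.0676 without 15 µM library 2), SELK (0.0724 without 15 µM library 1), SYVN1 (0.0676 and 0.0561 without 15 µM libraries 2 and 3), SEC24D (0.0946 without 15 µM library 3 and 0.0737 without vehicle library 1) and SEL1L (0.0948, 0.106 and 0.114 without 15 µM library 2 or 3 or vehicle library 1).

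Of 17 genes of the PERK arm and the integrated stress response, 12 rose and none fell, with a median log2 fold change of 0.53. DDIT3, which encodes the transcription factor CHOP, stood at 8.40, 8.28 and 6.89 CPM under vehicle and at 21.4, 20.01 and 21.2 CPM under AA132. The groups were well separated, a 2.65-fold rise (log2 fold change 1.41, SE 0.18, adjusted p 3.22e-06). DDIT3 lies beside MARS1 and MBD6 and shares sequence with their annotated spans, so reads in the overlap could belong to either. TRIB3, a pseudokinase that dampens ATF4 and CHOP activity, moved from 33.3, 21.3 and 26.2 CPM to 48.2, 53.5 and 49.9 CPM. Vehicle library 1 was the highest of its group and still lay below the treated libraries (log2 fold change 0.91, SE 0.11, adjusted p 3.9e-06).

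Other effectors rose by less than 1 on the log2 scale: CHAC1, which degrades glutathione, by 0.96, CEBPG, an ATF4 partner, by 0.79, CEBPB by 0.74, the secreted factors STC2 and VEGFA by 0.66 and 0.45, and the mTORC1 inhibitors SESN2 and DDIT4 by 0.53 and 0.52. ATF3, a stress-induced repressor, rose by 0.52 from 133, 122 and 128 CPM to 195, 179 and 178 CPM. ATF4 mRNA itself was higher by 0.27 (adjusted p 0.026). GDF15, a stress hormone, was called from very few reads, at 0.166, 0 and 0 CPM under vehicle and 0.424, 0.268 and 0.302 CPM under AA132. PPP1R15A, the stress-induced phosphatase subunit GADD34, had a log2 fold change of 0.28 (adjusted p 0.0883), and ATF5 one of -0.05 (adjusted p 0.877). The calls of ATF4, CEBPB, DDIT4 and GDF15 ended when 1 of several compared libraries was left out, with adjusted p up to 0.141 for ATF4 (without 15 µM library 3), 0.0915 for CEBPB and 0.159 for GDF15 (without 15 µM library 1) and 0.0914 for DDIT4 (without vehicle library 2). Of the 12 calls, 3 held in the fit of the 6 libraries alone. With AA132 0.1 µM as the control in place of vehicle, 8 of 17 were called, namely 7 of the 12 and PPP1R15A. The calls of DDIT4 and GDF15 were lost there, and CEBPG, CHAC1 and STC2 had adjusted p of 0.105, 0.0601 and 0.148.

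ATF4 is known to induce genes of amino acid supply. Of 10 transporters, 8 rose and none fell (median log2 fold change 0.54). SLC6A9, the glycine transporter GLYT1, moved from 22.3, 19.4 and 19.0 CPM to 58.7, 60.6 and 63.8 CPM. That was a 3.02-fold separation with little spread in either group (log2 fold change 1.59, SE 0.15, adjusted p 6.43e-08). SLC7A11, the cystine importer that feeds glutathione synthesis and is known as a target of both ATF4 and NRF2, stood at 2.74, 6.35 and 6.02 CPM under vehicle and at 30.2, 28.5 and 30.7 CPM under AA132. Vehicle library 1 held less of it than the other vehicle libraries, and all treated libraries were higher (log2 fold change 2.56, SE 0.29, adjusted p 9.04e-07). The antisense gene SLC7A11-AS1 overlaps it.

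SLC3A2, the heavy chain shared by several of these exchangers, moved from 238, 192 and 193 CPM to 427, 482 and 503 CPM (log2 fold change 1.18, SE 0.13, adjusted p 1.78e-07). Its light chain SLC7A5 followed from 59.1, 61.6 and 60.1 CPM to 101, 111 and 111 CPM (log2 fold change 0.84, SE 0.09). The neutral transporters SLC1A4, SLC38A2 and SLC1A5 rose by 0.57, 0.44 and 0.37, and the cationic transporter SLC7A1 by 0.51. The call of SLC7A1 ended without vehicle library 1 (adjusted p 0.0584) or 15 µM library 3 (0.0554), and vehicle library 1 held 46.6 CPM of it against 75.1 and 73.2 CPM in the other vehicle libraries. Of the 8 transporter calls, 4 held in the fit of the 6 libraries alone.

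Of 10 genes of serine, one-carbon and asparagine synthesis, 5 rose and none fell (median log2 fold change 0.35). Asparagine synthetase, ASNS, moved from 201, 185 and 175 CPM to 252, 260 and 272 CPM (log2 fold change 0.48, SE 0.07, adjusted p 3.51e-05). PSAT1, a serine synthesis enzyme, rose by 0.44, and MTHFD2 and SHMT2, enzymes of mitochondrial folate metabolism, by 0.42 and 0.29. PYCR1, a proline synthesis enzyme, was higher by 0.57. The calls of SHMT2 and PYCR1 ended without 1 library, with adjusted p of 0.0562 to 0.0684 for SHMT2 (15 µM library 3 or vehicle library 2 or 3) and 0.0517 to 0.0791 for PYCR1 (15 µM library 1 or 2 or vehicle library 2). None of the 5 held in the fit of the 6 libraries alone. Of 18 cytosolic aminoacyl-tRNA synthetases, AARS and CARS rose by 0.30 and 0.24, and the median was 0.11. Neither held in the fit of the 6 libraries alone, and CARS had an adjusted p of 0.0503 to 0.0787 without any 15 µM library or without vehicle library 2.

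**Figure D3:**
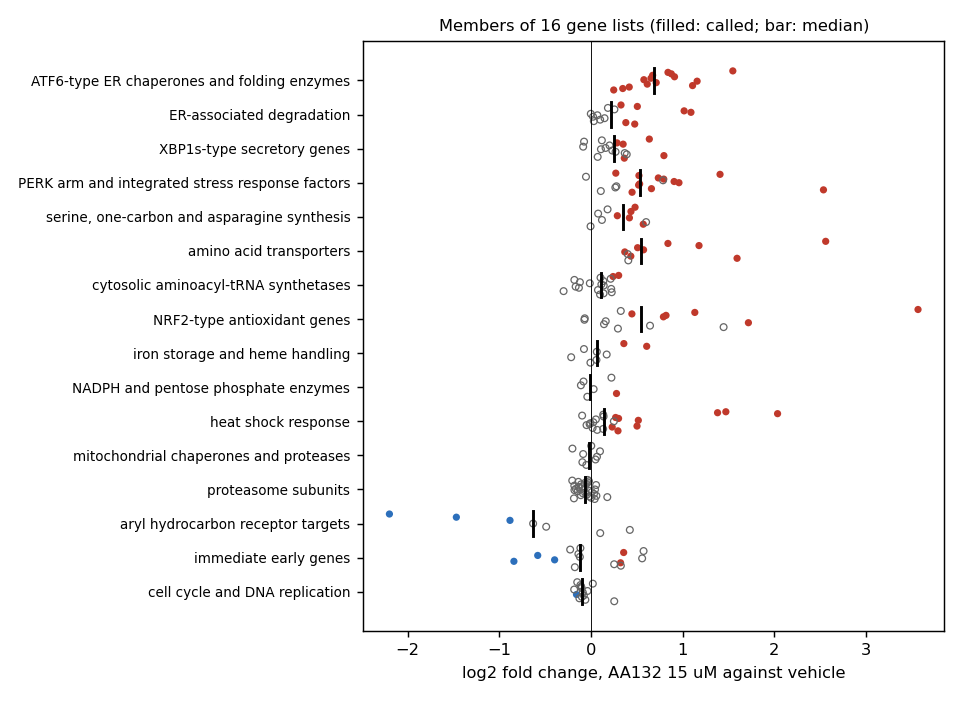
Log2 fold change, AA132 15 µM against vehicle, of each tested member of 16 gene lists, with called members filled (red higher, blue lower), others open and the list median as a bar. All 14 ATF6-type genes are filled and above 0, the 31 proteasome subunits are all open and near 0, and 3 aryl hydrocarbon receptor targets are filled and below 0.

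Of 14 tested antioxidant genes usually assigned to NRF2, 6 rose and none fell (median log2 fold change 0.55), and all 6 held in every fit that left out 1 library and 5 in the fit of the 6 libraries alone. HMOX1, described above, led them. GCLM, the regulatory subunit of the enzyme that starts glutathione synthesis, stood at 18.3, 24.2 and 23.3 CPM under vehicle and at 46.9, 50.3 and 47.2 CPM under AA132. The groups did not overlap, a 2.19-fold rise (log2 fold change 1.13, SE 0.14, adjusted p 3.22e-06). Its catalytic partner GCLC rose by 0.45. TXNRD1, thioredoxin reductase, moved from 212, 273 and 260 CPM to 422, 429 and 439 CPM (log2 fold change 0.79, SE 0.10), and SRXN1, which repairs oxidized peroxiredoxins, rose by 0.82.

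OSGIN1, an oxidative stress-induced growth inhibitor, was low throughout, at 1.88, 1.71 and 1.59 CPM against 5.23, 5.36 and 6.49 CPM (log2 fold change 1.72, SE 0.23, adjusted p 8.45e-06). NQO1, a quinone reductase that is a common NRF2 marker, was not called (log2 fold change 0.33, adjusted p 0.238), nor were PRDX1 (-0.07), TXN (-0.07) and GSR (0.16). Among related genes, the ferritin light chain FTL rose by 0.61 and the heavy chain FTH1 by 0.36, the autophagy receptor SQSTM1 by 0.50, the repressor BACH1 by 0.49 and malic enzyme ME1 by 0.27. NFE2L2, which encodes NRF2, had a log2 fold change of -0.15 (adjusted p 0.422). The calls of FTH1, BACH1 and ME1 ended when single libraries were left out, with adjusted p up to 0.110 (without vehicle library 3), 0.103 (without vehicle library 1) and 0.148 (without 15 µM library 3).

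The antioxidant response element was searched as TGACNNNGC on both strands. It lies in 15.5% of the 265 promoters of genes called higher, in 11.9% of genes tested and in 3013 of all 27305 promoters. A match is therefore common. Of the listed antioxidant genes, 10 were matched to a promoter, and 2 of these held the element, GCLM and TXNRD1. SRXN1, GCLC and OSGIN1, which were also called higher, held no match, nor did NQO1. The promoter of GCLM is shown because this gene rose in all treated libraries and holds 1 match, read here on the opposite strand and set in capitals, with its first base 34 bases before the start (GRCh38.p14, chr1:93909431-93909680, minus strand).
GCLM: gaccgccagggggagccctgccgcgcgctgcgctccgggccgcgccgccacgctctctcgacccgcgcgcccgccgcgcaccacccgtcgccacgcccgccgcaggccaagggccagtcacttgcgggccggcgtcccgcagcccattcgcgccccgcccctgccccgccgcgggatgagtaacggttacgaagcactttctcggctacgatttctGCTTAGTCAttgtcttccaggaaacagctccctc

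Heat shock genes divided into a few large rises and many small or absent ones. Of 21 tested, 9 rose and none fell, with a median log2 fold change of 0.14. HSPA1A, an inducible cytosolic HSP70, stood at 1197, 1053 and 1060 CPM under vehicle and at 3083, 3183 and 2919 CPM under AA132 (log2 fold change 1.47, SE 0.18, adjusted p 1.91e-06). HSPA1B moved from 1498, 1280 and 1319 CPM to 3598, 3681 and 3396 CPM (log2 fold change 1.38, SE 0.16). These genes are near-identical copies, so the split of reads between them is uncertain. HSPA6, the strictly inducible HSP70, was low but separate, at 1.63, 1.74 and 1.70 CPM against 7.37, 6.38 and 7.06 CPM (log2 fold change 2.04, SE 0.24, adjusted p 1.68e-06).

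The remaining calls were small. BAG3, an HSP70 co-chaperone of selective autophagy, rose by 0.50, the collagen chaperone SERPINH1 by 0.30 and CHORDC1, an HSP90 partner, by 0.23. The HSP70 cofactors DNAJB4 and HSPH1 rose by 0.52 and 0.27. The constitutive HSPA8 was not called (log2 fold change 0.13, adjusted p 0.296), nor were HSP90AA1 (0.25, adjusted p 0.077) and the mitochondrial HSPD1 (-0.01, adjusted p 0.929). Of the 9 calls, 3 held in the fit of the 6 libraries alone. Without vehicle library 1, 6 of the 21 were called, and HSPH1, CHORDC1 and DNAJB4 had adjusted p of 0.052, 0.0725 and 0.183. SERPINH1 was lost without 15 µM library 2 (0.0685) or vehicle library 2 (0.0826), CHORDC1 also without 15 µM library 2 (0.0539) or 3 (0.215) or vehicle library 3 (0.104), and DNAJB4 also without any 15 µM library (0.0539 to 0.206).

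The heat shock element, searched as GAANNTTC, lies in 8 of the 20 heat shock genes matched to a promoter (40.0%), in 8.30% of genes called higher, in 4.19% of genes tested and in 5.85% of all promoters. HSPA1A, the most abundant of the large rises in this list after HSPA1B, holds 1 match, in capitals, with its first base 106 bases before the start (GRCh38.p14, chr6:31815293-31815542, plus strand).
HSPA1A: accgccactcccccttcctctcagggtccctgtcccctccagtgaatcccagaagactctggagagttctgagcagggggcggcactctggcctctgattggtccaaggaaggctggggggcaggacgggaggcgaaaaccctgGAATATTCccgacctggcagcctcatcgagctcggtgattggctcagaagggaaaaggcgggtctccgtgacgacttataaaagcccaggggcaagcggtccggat

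The aryl hydrocarbon receptor is a ligand-activated transcription factor that induces cytochrome P450 genes. Of 7 tested genes of this receptor, its partner and its targets, 3 fell and none rose, where 0.792% of all genes fell. This list too was chosen with earlier results of these data known. CYP1A1, an oxidase of aromatic compounds, stood at 2.74, 2.23 and 2.12 CPM under vehicle and at 0.345, 0.617 and 0.577 CPM under AA132. The groups were separate at a low level, 4.59-fold lower in the mean (log2 fold change -2.20, SE 0.31, adjusted p 2.21e-05). CYP1B1, a related oxidase, moved from 6.62, 7.79 and 9.12 CPM to 2.94, 3.11 and 2.45 CPM (log2 fold change -1.47, SE 0.23, adjusted p 0.000114), although CYP1B1-AS1 overlaps it.

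TIPARP, a feedback inhibitor of the receptor, was better expressed, at 32.95, 45.3 and 44.2 CPM against 21.5, 22.2 and 22.8 CPM. Its treated libraries were tightly grouped below the vehicle range (log2 fold change -0.88, SE 0.15, adjusted p 0.000225). All 3 falls held in every fit that left out 1 library and in the fit of the 6 libraries alone. AHRR, the receptor's repressor, had a log2 fold change of -0.63 (adjusted p 0.0674). AHR mRNA was at 18.9 CPM in vehicle library 1 against 46.7 and 48.5 CPM in the other vehicle libraries and 49.1 to 52.4 CPM under AA132 (adjusted p 0.196). The xenobiotic element, searched as GCGTG, lies in 42.3% of promoters of genes called higher, 44.2% of those called lower and 44.2% of genes tested.

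Lists outside these programs also held calls. Of 14 immediate early genes, JUN and KLF6 rose by 0.36 and 0.32, and IER3, EGR1 and IER2 fell by 0.84, 0.58 and 0.40 on the log2 scale. IER3, a survival factor, moved from 41.1, 28.7 and 31.6 CPM to 21.2, 18.4 and 17.0 CPM (adjusted p 0.00167). None of the 5 calls held in the fit of the 6 libraries alone. The list median was -0.12, and 0.07 without vehicle library 1. The call of EGR1 was lost without 15 µM library 1 (0.143) or 2 (0.0739) or vehicle library 3 (0.0554), and IER2 held in 11 of the 33 fits without 1 library (0.133 without vehicle library 1, 0.0839 without vehicle library 3, and 0.151 and 0.238 without 15 µM libraries 1 and 3).

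From the cell death and p53 list of 9, 3 genes rose, namely the death receptors FAS (0.52) and TNFRSF10B (0.32) and the cell cycle inhibitor CDKN1A (0.44), and each held with any 1 library left out but none in the fit of the 6 libraries alone. The calcium pump gene ATP2A2, the target of Tg, rose by 0.42, the zinc exporter SLC30A1 by 0.65, NOTCH1 by 0.61, the phosphatase DUSP1 by 0.34, and the autophagy genes WIPI1 and GABARAPL1 by 0.57 and 0.55. Of these 6, only NOTCH1 held in the fit of the 6 libraries alone. With AA132 0.1 µM as control, SLC30A1 had an adjusted p of 0.102. Among genes of sterol synthesis, the demethylase CYP51A1 rose by 0.31, and it was not called without vehicle library 1 (0.0725) or 3 (0.0519) or 15 µM library 3 (0.162).

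None of 31 proteasome subunits was called in either direction (median -0.06, and 0.02 without vehicle library 1, range -0.20 to 0.18), and vehicle library 1 held 9911 CPM of them in sum against 8304 to 8594 CPM in the other 5 libraries. No call was made among 8 mitochondrial chaperones and proteases, 5 NF-kB targets and 4 genes of the TXNIP and arrestin-domain list. Over all genes tested 2.76% were called, so the absence of calls in lists of these sizes, the proteasome list included, lies near that share. Of 14 cell cycle and replication genes, the replicative helicase subunit MCM3 fell by 0.16 (adjusted p 0.0431, and 0.0536, 0.0842, 0.105 and 0.226 without vehicle library 1 or 3 or 15 µM library 2 or 3).

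Of the 491 called genes, 396 were on none of the lists (262 higher, 134 lower). LINC00624, a long noncoding RNA, rose from 0.166, 0.244 and 0.557 CPM to 1.67, 2.07 and 1.46 CPM, with a log2 fold change of 2.40 (SE 0.46, adjusted p 0.00142), and it overlaps CHD1L. BEST1, a chloride channel gene, rose from 0.194, 0.489 and 0.451 CPM to 1.88, 1.88 and 1.32 CPM (log2 fold change 2.15, SE 0.28), but it overlaps the far more abundant FTH1. MIOX, an enzyme of inositol breakdown, rose from 1.75, 1.49 and 1.35 CPM to 3.85, 4.21 and 4.07 CPM (log2 fold change 1.40, SE 0.21), and LOC284561 rose by 1.82 from under 0.5 CPM.

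The largest falls were mostly of noncoding genes near 1 CPM. LOC105378691 fell by 2.33, and its call ended without vehicle library 1 (0.0714) or 15 µM library 1 (0.138) or 2 (0.0719). NKILA, a noncoding RNA that overlaps PMEPA1, fell from 6.46, 6.95 and 6.87 CPM to 3.63, 3.73 and 3.33 CPM (log2 fold change -0.92, SE 0.15, adjusted p 0.000239). The small nucleolar RNA SNORA32, which lies within TAF1D, fell by 1.36 against vehicle and had an adjusted p of 0.725 against AA132 0.1 µM. CRACR2B, a calcium channel regulator, fell by 0.97, with adjusted p of 0.0566 without vehicle library 1 and of 0.107 and 0.0735 without 15 µM libraries 2 and 3. The other falls of this size were LOC105377986 (-1.06), LOC107985734 (-1.05), FOXCUT (-0.98), LOC101929003 (-0.97), LOC107985395 (-0.94) and LOC105379695 (-0.93). LOC107985734 was not called without vehicle library 1 (0.157), 15 µM library 1 (0.159) or 15 µM library 3 (0.119), and LOC107985395 without any 1 of the 15 µM libraries 1 and 3 or the vehicle libraries (0.0537 to 0.215).

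The neighbouring doses gave no call in the same fit. Against AA132 10 µM, 0 of 17793 genes were called by edgeR (0% of genes), 1064 had an unadjusted p under 0.05, and DESeq2 called 3 (P2RY11, ARPC4-TTLL3 and TRIM39-RPP21). Against 30 µM, edgeR called 0 genes (0%), 1256 had an unadjusted p under 0.05, and DESeq2 called 8. These tests do not show the doses to be alike. HSPA5 differed by 0.19 ± 0.16 (SE) on the log2 scale from 10 µM and by 0.09 ± 0.16 from 30 µM. HMOX1 was at 70.7, 126 and 118 CPM at 10 µM and at 208, 189 and 205 CPM at 30 µM. The 3 dose groups did not overlap for HMOX1, with 15 µM in the middle, but neither difference passed (0.57, SE 0.30, adjusted p 0.84 against 10 µM, and -0.37, SE 0.30, adjusted p 0.85 against 30 µM). SLC6A9 at 70.4 to 79.1 CPM under 30 µM also lay above its 15 µM range, with a difference of -0.27 (adjusted p 0.73).

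List medians against the next doses were near 0. The ATF6-type genes differed by a median of 0.08 from 10 µM and 0.03 from 30 µM, the integrated stress response genes by 0.11 and -0.03, the transporters by 0.20 and -0.14, the antioxidant genes by 0.10 and -0.12 and the heat shock genes by 0.02 and 0.05. With 10 µM library 1, 1 µM library 1, 3 µM library 3 and AA147 library 1 left out together, 15 genes were called against 30 µM, all higher at 15 µM, and 0 against 10 µM. With vehicle library 1 left out as well, the counts were 133 and 0.

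**Figure D4:**
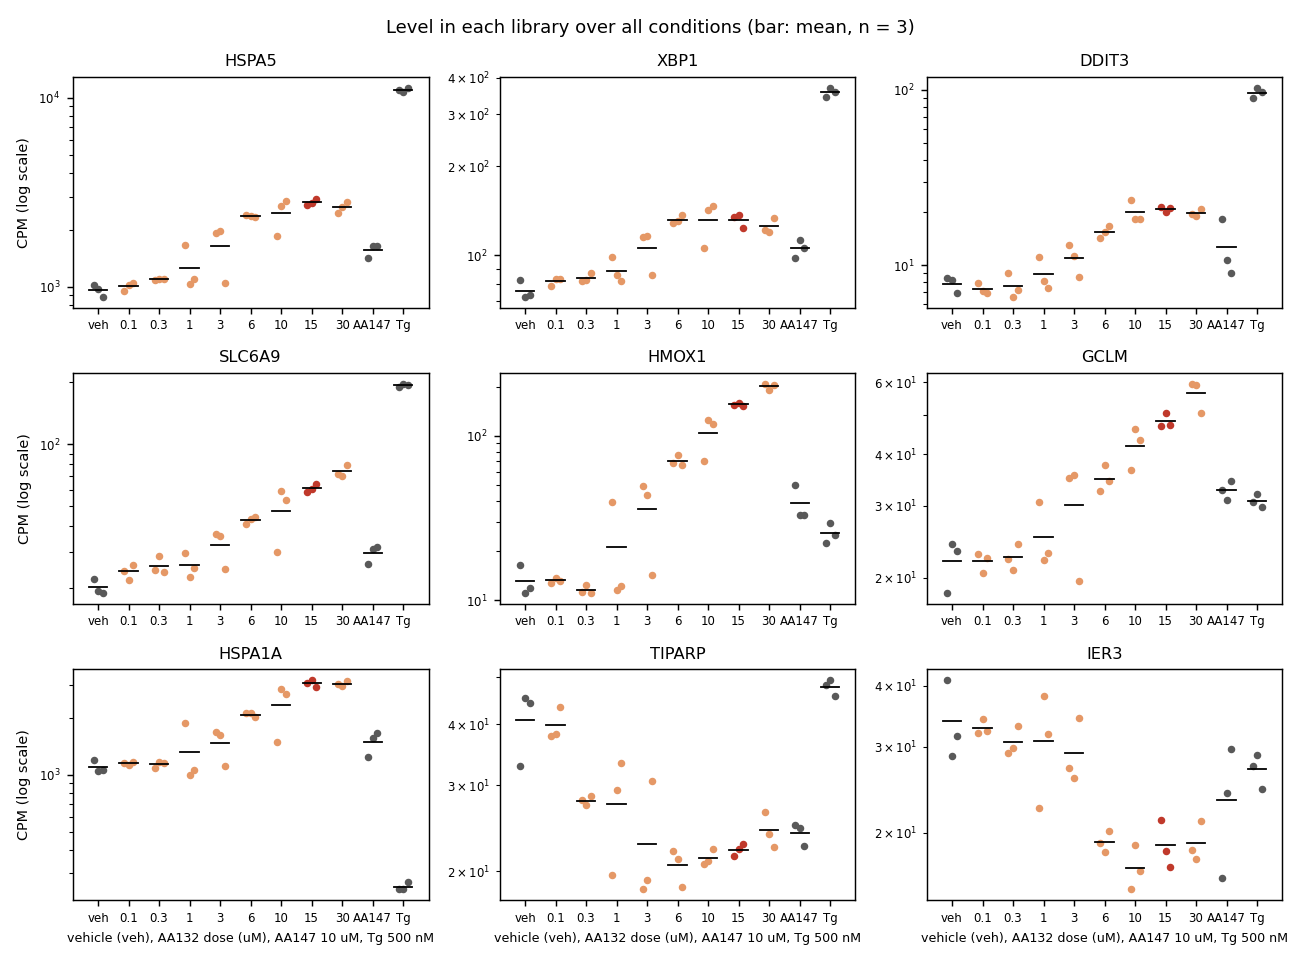
Level in CPM (log axis) of 9 genes in each library of the 11 conditions, with the mean of 3 libraries as a bar and AA132 15 µM in red. HSPA5 at 15 µM lies between vehicle and Tg, HMOX1 at 15 µM lies above Tg, and HSPA1A under Tg lies below every other condition.

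Tg, at 500 nM, gave a different profile from AA132 at 15 µM. The doses differ, and these are values at 1 dose of each. Of 17793 genes, 5031 differed (28.3%), 2457 higher in AA132 (13.8%) and 2574 lower (14.5%). All 14 ATF6-type genes were lower in AA132 than in Tg (median log2 difference -1.17). HSPA5 was at 10969, 10778 and 11322 CPM under Tg, and the AA132 level was lower by 1.97 on the log2 scale (SE 0.16, adjusted p 1.27e-11). All 16 XBP1s-type genes, 13 of 14 degradation genes, 15 of 17 integrated stress response genes and 9 of 10 transporters were also lower. HERPUD1 was at 461, 481 and 472 CPM under Tg, with a log2 difference of -3.03 (SE 0.12), and TRIB3 at 405, 388 and 401 CPM, with one of -2.98 (SE 0.12).

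SLC3A2 was the transporter that did not differ by the test: it was at 539, 507 and 543 CPM under Tg, with a log2 difference of -0.17 (SE 0.12, adjusted p 0.332). Antioxidant and heat shock genes went the other way. Of 14 antioxidant genes, 9 were higher in AA132 than in Tg and none lower. Among these 9, PRDX1, GSR, NQO1 and TXN were not called against vehicle. HMOX1 was at 22.4, 29.3 and 24.9 CPM under Tg, far below the AA132 range (log2 difference 2.61, SE 0.32, adjusted p 1.06e-07). Of 21 heat shock genes, 19 were higher in AA132 and none lower (median 0.66). Against vehicle, 9 of the 21 were called higher.

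HSPA1A and HSPA8 lay lower under Tg than under vehicle, with no overlap of libraries. HSPA1A was at 249, 247 and 269 CPM under Tg, against 1053 to 1197 CPM under vehicle (log2 difference of AA132 from Tg 3.59, SE 0.19, adjusted p 6.14e-16). HSPA8 was at 1060 to 1133 CPM under Tg, 3015 to 3308 CPM under vehicle and 3388 to 3673 CPM under AA132. DNAJB1 was at 89.4, 94.3 and 99.97 CPM under Tg (log2 difference 0.89, SE 0.07). CYP1A1 at 5.08, 4.67 and 5.15 CPM under Tg was above both other groups (log2 difference -3.27, SE 0.30), and TIPARP at 45.7 to 49.3 CPM was above its AA132 level (-1.11, SE 0.15).

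Outside the lists, IL7R, the interleukin 7 receptor, had the largest excess in AA132 over Tg after HSPA1A, HSPA1B, HMOX1 and HSPA6, at 1.13 ± 0.48 CPM against 0.245 ± 0.12 CPM (log2 difference 2.19), beside 1.07 ± 0.19 CPM under vehicle. FGF21, a secreted metabolic hormone, was at 0.250 ± 0.15 CPM in AA132 and 3.96 ± 0.43 CPM in Tg (log2 difference -3.96), and BHLHA15, a secretory cell transcription factor, at 0.764 ± 0.13 and 11.3 ± 0.73 CPM (-3.88). KLHDC7B, ECM2 and LOC105377677 were nearly absent in AA132, at 0.0810 ± 0.047, 0.0543 ± 0.055 and 0.0629 ± 0.041 CPM, and stood at 5.50 ± 0.95, 2.06 ± 0.37 and 1.47 ± 0.24 CPM in Tg.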

How the data were processed

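RNA sequencing libraries were made from total RNA by a service provider on the DNBSEQ platform, per the labels. The authors deposited 1 table of expected counts per gene for 33 columns, not scaled between libraries. The genome build was GRCh38.p7, per the submitters' processing notes, and the aligner, counting tool, annotation and use of strand are not given in the sources used here. The table's floor value of 0.009, which fills 43.5% of cells, was set to 0, 38074 entries were summed by name to 38021 genes, and expected counts, 3.22% of them fractional, were rounded. The 28 entries with date-like names were kept apart.

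Counts were normalized by TMM and tested by quasi-likelihood in edgeR 4.0.16 (R 4.3.3) on the 17793 genes that filterByExpr kept. A single model held the 11 conditions, with no term for the column number. Calls need a Benjamini-Hochberg adjusted p under 0.05 over all genes tested, and every adjusted p is edgeR's unless DESeq2 1.42.0 is named. The fit was also run on simulated counts with known changes, drawn with the same spread for every gene and no library standing apart. That run does not cover libraries such as vehicle library 1. Named genes are the 3 markers, members of the lists, the 12 largest called rises and falls whose libraries do not overlap and whose higher group averages 1 CPM or more, and the 5 largest each way against Tg. Members and lists were chosen with earlier results of these data known. Gene overlaps come from GENCODE v44, and promoters from RefSeq (GRCh38.p14). Alternatives were RLE normalization, no filter, a minimum fold, a replicate block, a fit of the compared libraries alone, DESeq2, each library left out, AA132 0.1 µM as control, and libraries that stood apart left out together. Not every called member of the lists is reported here.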

Additional observations from a re-analysis of the deposited data

How the results depend on the processing

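The count against vehicle of 491 genes became 503 with RLE normalization, 703 with no filter, 43 at an absolute log2 change of 1 or more, 46 with only the 6 compared libraries in the fit, and 763 with DESeq2, which held 475 of the 491. With 1 library left out it ran from 267 (without 15 µM library 3) to 920 (without vehicle library 2), and was 312, 301 and 636 without 15 µM library 1, 15 µM library 2 and vehicle library 1. Alternatives added after seeing the data gave 361 with AA132 0.1 µM as control (247 of the 491 held), 754 without the 4 treated libraries that stood apart, and 1257 without those and vehicle library 1. Of 109 named calls against vehicle, 74 were lost with only the 6 libraries and 22 with the 0.1 µM control, and none of the 109 changed direction under an alternative. Directions of named genes that were not called were not compared, and the medians of the immediate early and proteasome lists changed sign without vehicle library 1. Beside 0 calls, the count against 10 µM was 69 with no filter, 3 with DESeq2, and 0 to 0 with 1 library left out. Against 30 µM it was 56 with no filter, 8 with DESeq2, 2 (P2RY11 and ZNF559-ZNF177) with only the compared libraries, 0 to 1 (EDN1) with 1 library left out, and 15 and 133 without the libraries that stood apart. Against Tg the 5031 calls became 629 with a minimum log2 fold change of 1 and 4090 to 5825 with 1 library left out. The count against Tg was 6690 with only the compared libraries in the fit. It was 5511 without the 4 treated libraries that stood apart, and 6666 without those and vehicle library 1. Fewer libraries estimate the spread in the fit of the compared libraries alone. The cause of the shifts in count was not tested, for that fit or for the others.

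The numbered columns share only a number: deviations of same-numbered 15 µM and vehicle libraries correlated at -0.03, -0.08 and 0.01. A replicate block gave 486 calls against vehicle, 0 against 10 µM, 0 against 30 µM and 5037 against Tg, and among named genes IER2, LOC107985395 and NDRG1 were not called (adjusted p 0.0547, 0.054 and 0.0541). At 36.6 to 37.5 M counts per library, genes under about 1 CPM rest on few reads.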

Other observations

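Further called genes were on no list and were chosen after their values were seen. NPC1, a cholesterol exporter of the lysosome, rose from 159, 175 and 175 CPM to 224, 243 and 259 CPM (log2 fold change 0.51, SE 0.08, adjusted p 5.35e-05). The proton pump subunit genes ATP6V0A1 and ATP6V0A2 rose by 0.53 each, and ATP6V0A2 was at 53.3 CPM in vehicle library 1 against 79.1 and 77.8 CPM in the others. TFE3, a transcription factor of lysosomal genes, rose by 0.47 from 39.5, 35.6 and 39.3 CPM to 52.3, 54.1 and 52.3 CPM. The lysosomal enzymes HGSNAT and NEU1 rose by 0.45 and 0.39. NPC1, ATP6V0A1, ATP6V0A2, TFE3 and HGSNAT held in all 33 fits that left out 1 library, and NEU1 in 31 (adjusted p 0.0633 without 15 µM library 3 and 0.0537 without vehicle library 2). In the fit of the 6 libraries alone, ATP6V0A1 held and the other 5 did not.

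Other rises off the lists were DNAH17, a dynein heavy chain, from 17.1, 19.8 and 18.8 CPM to 43.8, 41.6 and 36.9 CPM (log2 fold change 1.14, SE 0.14, adjusted p 1.68e-06), MAP3K14, a kinase of noncanonical NF-kB signalling (0.91), TRIM16 (0.76), the metal importer SLC39A14 (0.69) and PCK2, mitochondrial phosphoenolpyruvate carboxykinase (0.66). Each of these held in all 33 fits, and SLC39A14 and PCK2 did not hold in the fit of the 6 libraries alone. Among falls, the developmental transcription factor DLX2 moved from 27.0, 24.1 and 25.4 CPM to 17.0, 17.3 and 15.996 CPM (log2 fold change -0.61, SE 0.09, adjusted p 5.35e-05). ETV1, an ETS factor, changed by -0.71, HOXA10 by -0.46, the kinase MAP2K6 by -0.90 and SMAD7, an inhibitor of TGF-beta signalling, by -0.36, and each of these, with DLX2, held in all 33 fits and none in the fit of the 6 libraries alone.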
